A study of Homo sapiens with 3 samples.

Results

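Chemokines are small secreted proteins that guide leukocytes into tissue. The 10 inflammatory chemokine ligand genes described here are CCL2, CCL5, CCL17 and CCL20 of the CC class and CXCL1, CXCL2, CXCL3, CXCL5, CXCL8 and CXCL10 of the CXC class. They are selected by gene symbol, from a list drawn up with earlier results of these arrays known, and they are 10 of the 22439 genes named on the array. Together they have 13 of its 58201 probes.

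The RNA came from A549, a long-established line of human lung adenocarcinoma cells, after 48 h with 0.1% DMSO (control), 60 μg/mL cordycepin, an adenosine analog that lacks the 3′ hydroxyl group, or 100 μg/mL cordyceps. Cordyceps is the fungal genus in which cordycepin is found, and the labels give neither the extract nor its content. Every group grew in DMEM that held zinc sulfate at 16.7 μM, troglitazone at 10 μM and nicotinamide at 10 mM, beside penicillin-streptomycin (1%) and fetal bovine serum (10%), so the control cells carried these agents too. Each condition was measured on 1 array in 1 colour (Cy3), so no difference has a replicate check and no test between conditions was made.

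The 2 classes are named after the spacing of the first cysteines of the protein. CXC ligands with a glutamate-leucine-arginine (ELR) motif before the first cysteine, such as CXCL1, CXCL2, CXCL3, CXCL5 and CXCL8, act through CXCR2 and attract neutrophils, whereas CC ligands act mainly on monocytes, dendritic cells and T cells. Epithelial cells are known to transcribe many of these genes after interleukin-1 or tumor necrosis factor, through NF-κB, and the messenger RNAs of several are short-lived.

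Signals below are Agilent processed signals, in arbitrary units. A log2 ratio is the difference between arrays in log2 signal after subtraction of the 75th percentile of each array (signals of 260, 224 and 260 on the control, cordycepin and cordyceps arrays), and a fold is its antilog, so it departs slightly from the ratio of the printed signals. A gene with several probes is represented by the brightest. A gene was called higher or lower at 2-fold or more. As a measure of technical error, probe pairs of 3356 genes were compared. The robust SD of a single-probe log2 ratio was 0.25 for cordycepin over control, 0.20 for cordyceps over control and 0.28 for cordycepin over cordyceps. The ordinary SD from the same pairs was larger, at 0.35, 0.34 and 0.42 in the same order. This spread covers differences between probes of a gene on the same RNA, and not the spread between cultures.

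No spot was saturated, and 28494, 27666 and 24505 probes were well above background on the control, cordycepin and cordyceps arrays. In the corner of high rows and columns (rows past 5/8 of the array and columns past its middle), the local background was an outlier at 11.2% of spots on the cordyceps array and at 0 on the others. There, 14.6% of tested probes were called higher with cordyceps, against 2.80% elsewhere, whereas with cordycepin the shares were 6.27% and 7.26%. Among the members, the brightest CXCL10 probe and 5 of the 10 CCL2 spots lie in that corner. All 6 epithelial markers (EPCAM, KRT7, KRT8, KRT18, KRT19 and CDH1) were well above background on all 3 arrays, with EPCAM 2.85-fold lower with cordycepin and KRT19 2.37-fold lower with cordyceps. Of the leukocyte markers, CD3E was not well above background on any array, PTPRC had signals of 99.5, 71.8 and 72.9, CD14 had 3387, 1559 and 2183, and ITGAM had 105, 135 and 80.2 in the same order. CSF1R was well above background on the cordycepin array alone, with signals of 15.2, 36.4 and 23.7, and its part in the results was not tested. Of the fibroblast markers 1 of 5 (COL1A1) and of the endothelial markers 2 of 4 (VWF and CDH5) were above background on at least 1 array.

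With cordycepin, all 4 CC ligands were at least 2-fold higher than in the control, whereas none of the 5 CXC ligands with a signal above background reached 2-fold. The 4 of 9 measured members called higher compare with 5.95% of the 15917 genes tested, and 0 members were called lower, against 3.57%. With cordyceps, CCL17, CXCL2 and CXCL8 were at least 2-fold higher, 3 of 9 members against 4.19% of 15602 genes, and 0 were lower, against 3.15%. The shares over all genes include the corner, where 14.6% of tested probes were called higher with cordyceps, against 2.80% elsewhere. None of these 3 members lies there. At 1.5-fold 6 members were higher with cordyceps, against 8.3% of genes, and at 3-fold 1 was (CCL17), against 2.29%. The median log2 ratio of the 9 members was 0.78 with cordycepin and 0.70 with cordyceps, beside −0.05 and −0.11 over all named genes measured on both arrays. The split into CC and CXC ligands was drawn after the values were seen and is a description. Both comparisons use the same control array, and the dose and the material differ between the treatments. In bulk RNA, more cells making a transcript and more transcript per cell cannot be told apart.

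**Figure D1:**
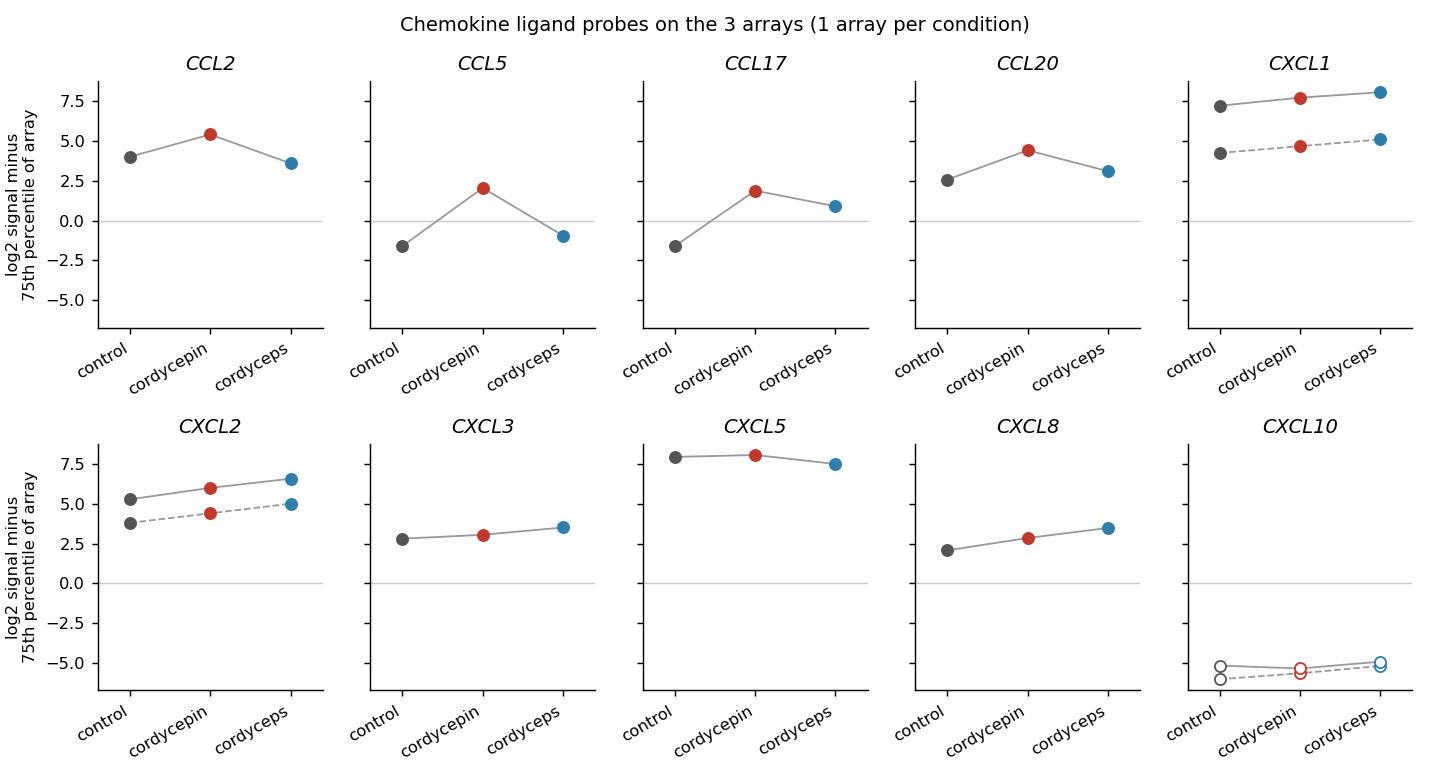
Log2 processed signal minus the array's 75th percentile (y axis) for each of the 13 ligand probes on the control, cordycepin and cordyceps arrays (x axis). Each point is 1 probe on 1 array, lines join the points of a probe, and the panels of CCL5 and CCL17 show the steepest rise from control to cordycepin.

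CCL5 attracts T cells and monocytes. Its probe had a signal of 85.5 in the control, 929 with cordycepin and 135 with cordyceps. The cordycepin array stood far above the other 2, and the cordyceps array was above the control. The log2 ratio was 3.66 with cordycepin, a 12.6-fold rise and the 5th highest of 14600 genes measured on both arrays. With cordyceps it was 0.66 (1.58-fold), under the threshold.

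CCL17, a ligand of CCR4 on T helper and regulatory T cells, had signals of 85.3, 827 and 485 on the control, cordycepin and cordyceps arrays. Both treated arrays were well above the control. The gene rose 11.3-fold with cordycepin (log2 ratio 3.49, 8th of 14600 genes) and 5.69-fold with cordyceps (log2 ratio 2.51, 50th of 13889 genes). It was the only member called higher in both comparisons. The study's table of gene ontology terms for genes raised by cordycepin, chosen on these arrays, contains it but not CCL2, CCL5 or CCL20. That table also holds IL1A, IL6, ICAM1 and TNFAIP3, and it is no independent evidence of the direction of any of them or of CCL17. Under another background correction (normexp), the log2 ratios with cordycepin were 2.95 for CCL5 and 2.79 for CCL17, which are smaller rises that still passed 2-fold.

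CCL20 is the ligand of CCR6, which is carried by immature dendritic cells and a subset of T helper cells. Its signal was 1551 in the control, 4812 with cordycepin and 2242 with cordyceps. The cordycepin array was the highest, and the cordyceps array lay nearer the control. The gene rose 3.60-fold with cordycepin (log2 ratio 1.85), and the log2 ratio with cordyceps was 0.53 (1.45-fold).

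CCL2 draws monocytes through CCR2, and its probe was printed as 10 spots, so the reading error within each array can be seen. In the control the 10 signals ran from 4047 to 4601 with a median of 4178, with cordycepin from 9294 to 9890 with a median of 9593, and with cordyceps from 3088 to 3231 with a median of 3164. The 3 sets of spots did not overlap, with cordycepin highest and cordyceps lowest. The log2 ratio was 1.40 ± 0.047 (SD over 10 spots) with cordycepin, a 2.64-fold rise, and −0.42 ± 0.060 with cordyceps, where the control was 1.34-fold the cordyceps array. Spots of 1 array are repeated readings of 1 RNA and not replicates of a condition. In the corner and elsewhere, 5 spots each, the ratios were nearly equal, at 1.42 and 1.38 with cordycepin and −0.42 and −0.41 with cordyceps.

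**Figure D2:**
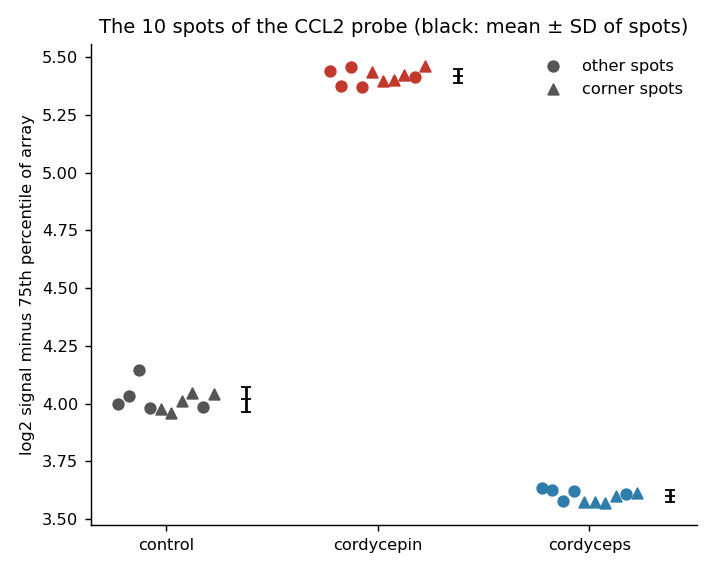
Log2 signal minus the array's 75th percentile (y axis) of the 10 CCL2 spots on each array (x axis), with spots in the corner marked and the mean ± SD of the spots in black. The SD of the spots was 0.053, 0.031 and 0.024 on the control, cordycepin and cordyceps arrays, and the 3 clouds are separate.

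The ELR ligands CXCL1, CXCL2, CXCL3, CXCL5 and CXCL8 lie on chromosome 4. None of these genes was called with cordycepin, unlike the 4 CC ligands, and 4 of the 5 had a positive log2 ratio of 0.70 or more with cordyceps. Their upstream sequences are shown as a description, and whether they bear on these values was not tested. RefSeq promoter windows of GRCh38.p14, from 250 bases before to 50 bases after the annotated start, were found for 7 of the 10 members. Not matched were CCL2, CCL5 and CCL17, so the CC and CXC ligands cannot be compared by these windows. Bases −100 to −51 from the start are printed 5′ to 3′ on the strand of the gene, with the match to the NF-κB motif or to the run GGAATTTCC in capitals.
CXCL1 (chr4:73869293-73869342, plus strand): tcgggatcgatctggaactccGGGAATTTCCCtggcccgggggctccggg
CXCL2 (chr4:74099246-74099295, minus strand): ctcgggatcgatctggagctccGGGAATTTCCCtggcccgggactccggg
CXCL3 (chr4:74038740-74038789, minus strand): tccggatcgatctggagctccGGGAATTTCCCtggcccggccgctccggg
CXCL5 (chr4:73998728-73998777, minus strand): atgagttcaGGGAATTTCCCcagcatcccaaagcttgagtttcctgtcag
CXCL8 (chr4:73740469-73740518, plus strand): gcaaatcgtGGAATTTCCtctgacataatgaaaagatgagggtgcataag

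The run GGAATTTCC, 9 bases, was the longest shared by the upstream windows of these 5 genes and was found by comparing them, and it occurs in 0.461% of 35116 promoters. It begins at base −78 in CXCL1, −77 in CXCL2, −78 in CXCL3, −90 in CXCL5 and −91 in CXCL8, and it also occurs in CXCL10, on the other strand, from −176 to −168. It is thus in 6 of the 7 member promoters and not particular to the ELR ligands. The 10-base NF-κB motif was found on at least 1 strand in 6 of the 7 member promoters, in all but CXCL8, and in 5.91% of all promoters. A match overlaps that run in CXCL1, CXCL2, CXCL3, CXCL5 and CXCL10. The match in CCL20, which lacks the run, and the CXCL10 match at −122 do not. In CXCL8 the run is flanked by other letters, which says only that the motif as searched is not in this window. The upstream windows were also compared 2 at a time by sliding one along the other without gaps. This understates identity where bases were gained or lost, and taking the best offset raises it, also between unrelated sequences. Over the bases that overlapped at the best offset, CXCL1 and CXCL3 were identical at 64.8% of positions. CXCL2 and CXCL3 were identical at 48.6%, and CXCL1 and CXCL2 at 47.4%. CXCL8 shared 27.7% to 28.5% with the other 4, and how much unrelated promoters share was not computed.

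The other motifs were searched as written on both strands, and of the 7 windows those of CXCL8, CCL20 and CXCL10 held a match. So few matches among 7 windows do not set these genes apart, and variants of the motifs were not searched. TGANTCA, the AP-1 motif, was found in CXCL8 alone of the 7, at base −137, and in 7.71% of all promoters. TATAAA was found in CXCL8 at −31 and CCL20 at −29, and in 4049 of the 35116 promoters. The core of the interferon-stimulated response element (ISRE) was found in CXCL10 at −221, and in 3.57% of all promoters. The 250 bases before the start of these 3 genes follow, with each match in capitals.
CXCL8 (chr4:73740319-73740568, plus strand): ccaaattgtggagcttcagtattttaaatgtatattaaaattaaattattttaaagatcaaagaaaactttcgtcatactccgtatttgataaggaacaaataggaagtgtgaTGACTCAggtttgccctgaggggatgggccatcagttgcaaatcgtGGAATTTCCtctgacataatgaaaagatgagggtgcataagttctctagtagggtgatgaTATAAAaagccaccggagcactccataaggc
CCL20 (chr2:227813592-227813841, plus strand): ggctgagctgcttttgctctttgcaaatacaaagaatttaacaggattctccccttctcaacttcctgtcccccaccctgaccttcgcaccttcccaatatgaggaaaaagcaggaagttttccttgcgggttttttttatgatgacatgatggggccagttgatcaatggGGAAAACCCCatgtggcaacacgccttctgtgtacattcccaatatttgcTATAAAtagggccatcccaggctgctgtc
CXCL10 (chr4:76023498-76023747, minus strand): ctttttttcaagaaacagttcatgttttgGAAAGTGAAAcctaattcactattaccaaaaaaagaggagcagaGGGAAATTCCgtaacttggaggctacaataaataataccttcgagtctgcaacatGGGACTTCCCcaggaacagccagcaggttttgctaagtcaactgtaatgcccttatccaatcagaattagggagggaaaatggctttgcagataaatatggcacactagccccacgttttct

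**Figure D3:**
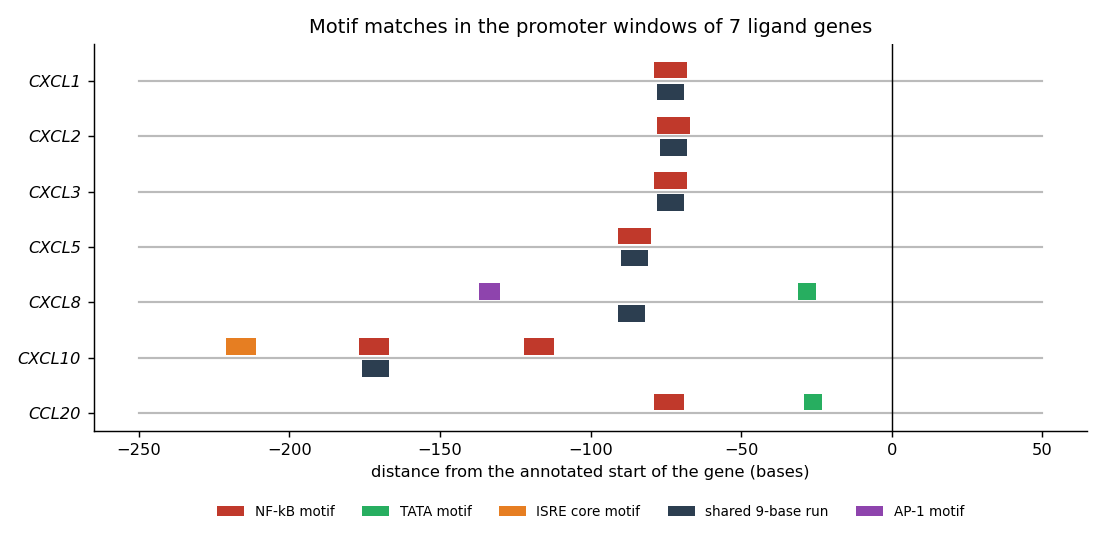
Positions of motif matches (x axis, distance in bases from the annotated start) in the promoter windows of the 7 ligand genes with a RefSeq window (y axis), with colours for the motifs. The NF-κB matches of CXCL1, CXCL2 and CXCL3 begin between −79 and −77, and those of CXCL10 lie farther out, at −177 and −122.

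CXCL8, the classical neutrophil attractant that binds CXCR1 and CXCR2, had signals of 1092, 1615 and 2905 on the control, cordycepin and cordyceps arrays. Both treated arrays were above the control, the cordyceps array most. The rise with cordyceps was 2.66-fold (log2 ratio 1.41, 204th of 13889 genes), and the log2 ratio with cordycepin was 0.78 (1.72-fold).

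CXCL2 and CXCL1, both ligands of CXCR2, have 2 probes each. The brighter CXCL2 probe had signals of 10135, 14383 and 24946 on the control, cordycepin and cordyceps arrays, and the other probe had 3633, 4749 and 8392. Both probes gave the order control, cordycepin, cordyceps. CXCL2 rose 2.46-fold with cordyceps, with log2 ratios of 1.30 and 1.21 for its probes, and had log2 ratios of 0.72 and 0.60 with cordycepin.

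For CXCL1 the brighter probe had signals of 38983, 47823 and 70285 in the same order of arrays, and the other probe had 4968, 5766 and 8963. The order was that of CXCL2, with the cordyceps array highest. The log2 ratios with cordyceps were 0.85 for both probes (1.80-fold), and with cordycepin they were 0.51 and 0.43. Neither passed 2-fold, except that scaling the arrays to their medians, in place of the 75th percentile, put CXCL1 at 2.17-fold with cordyceps, as the 4th member called, against 6.17% of genes called higher under that scaling. CXCL1, CXCL2 and CXCL3 are close paralogs, and how far their probes bind each other's transcripts was not tested.

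CXCL3, another CXCR2 ligand, had signals of 1818, 1858 and 2964 on the control, cordycepin and cordyceps arrays. The first 2 were nearly equal and the cordyceps array was the highest. The log2 ratio was 0.25 with cordycepin, equal to the robust technical SD, and 0.70 with cordyceps (1.63-fold).

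CXCL5 also acts on CXCR2, and its log2 ratio with cordyceps had the opposite sign to those of the other ELR ligands. Its signals were 64510, 60426 and 47425, with the cordyceps array the lowest. The log2 ratio was 0.12 with cordycepin, within the robust technical SD, and −0.44 with cordyceps, where the control was 1.36-fold the cordyceps array. Neither value passed 2-fold. With cordycepin the sign of CXCL5 turned under median scaling (−0.14) and without scaling (−0.09), and that of CXCL3 turned under median scaling (−0.02).

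CXCL10, an interferon-inducible ligand of CXCR3 on activated T cells, was not well above background on any array. Its probes had signals of 7.15, 5.44 and 8.49 and of 3.95, 4.41 and 7.05 on the control, cordycepin and cordyceps arrays, under the lowest signal of a probe well above background (18.6, 21.8 and 34.5). No ratio is given for it.

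**Figure D4:**
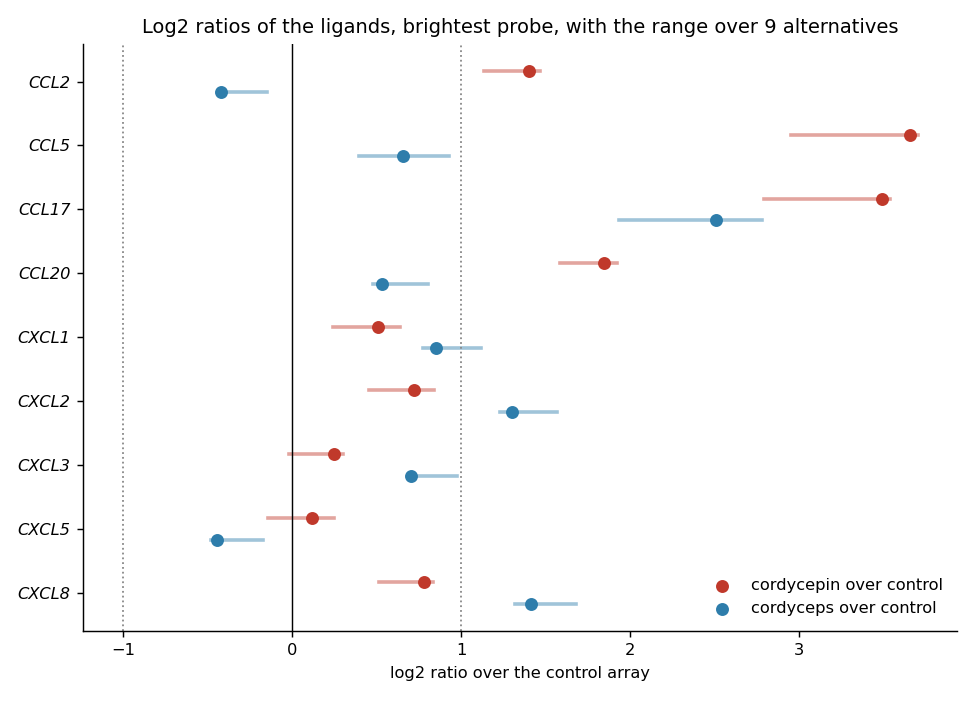
Log2 ratios (x axis) of the ligand genes (y axis) for cordycepin over control and cordyceps over control, brightest probe, with bars for the range over 9 processing alternatives and lines at 2-fold. The CC ligands CCL5 and CCL17 lie farthest to the right with cordycepin, and CXCL8, CXCL2 and CCL17 pass 2-fold with cordyceps.

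The location of the probes on the array was set beside these values. For the 8 measured members printed as single spots, the median log2 ratio of the probes within 12 rows and columns lay between −0.11 and 0.08 with cordycepin and between −0.19 and −0.02 with cordyceps. None of these 8 brightest probes is in the corner. In the order of all genes, CCL20 ranked 115th, CCL2 258th, CXCL8 942nd and CXCL2 1127th of 14600 with cordycepin, and CXCL2 ranked 243rd, CXCL1 559th and CXCL3 774th of 13889 with cordyceps.

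**Figure D5:**
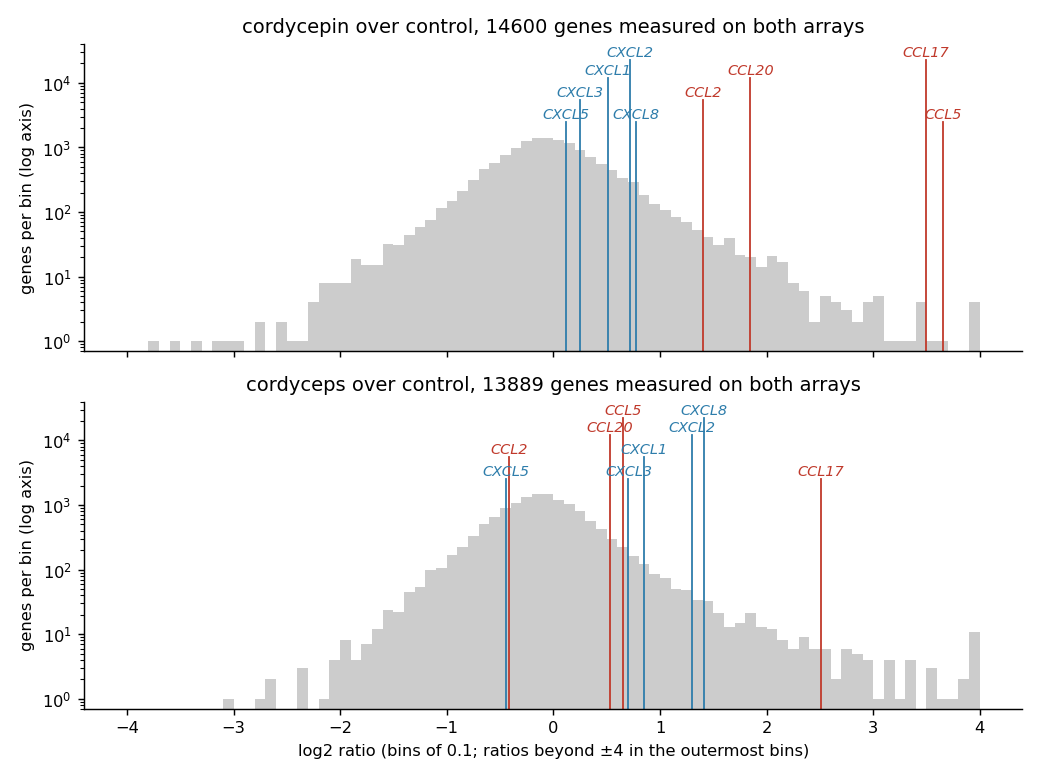
Number of genes per bin of log2 ratio (y axis, log scale) among the genes measured on both arrays, 14600 for cordycepin over control and 13889 for cordyceps over control, with the ligand genes marked. With cordycepin CCL5 and CCL17 sit in the right tail, at 3.66 and 3.49, and CXCL5 sits near the centre, at 0.12.

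Set directly against the cordyceps array, the cordycepin array was at least 2-fold higher for CCL5 (8.0-fold), CCL2 (3.53-fold) and CCL20 (2.49-fold). These are 3 of 9 members, against 7.75% of 15482 genes, and 0 were at least 2-fold lower, against 5.57%. CCL17 fell just under the threshold at 1.98-fold. The ELR ligands other than CXCL5 had negative log2 ratios, from −0.34 in CXCL1 to −0.63 in CXCL8, and CXCL5 had 0.56. At 1.5-fold CXCL8 alone was lower, against 12.7% of genes. Under median scaling the direct comparison changed, with CCL2 and CCL5 higher at 2-fold, against 2.96% of all genes tested, and CXCL2 and CXCL8 lower, against 17.1%.

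Of 38 other chemokine ligands listed, 31 had a probe and 11 were well above background on the control or the cordycepin array. Of these, 8 were called higher with cordycepin and 0 lower, against 5.95% and 3.57% of all genes. Among the 8 were 6 of the 7 CC ligands tested. Of the 8, CCL4L2, CCL15, CCL26 and PPBP were well above background on both of these arrays. The others were above background on the cordycepin array alone, so they could be called only as higher there. The count of 8 is thus no support for a shared direction. CCL26, an eotaxin that acts on CCR3, had signals of 170, 519 and 59.1 on the control, cordycepin and cordyceps arrays. It rose 3.54-fold with cordycepin and fell 2.88-fold with cordyceps. It was the only one of 7 other ligands tested that was called with cordyceps, where 3.15% of all genes were called lower. PPBP, the precursor of a platelet chemokine for neutrophils, had signals of 43.5, 168 and 24.8, a 4.47-fold rise with cordycepin, and was not well above background on the cordyceps array. CCL15, in the corner, had signals of 72.2, 181 and 83.7 (2.91-fold with cordycepin). CCL3, CCL1 and CCL28 were well above background on the cordycepin array alone, and were at least 5.37-fold, 4.05-fold and 3.69-fold higher there than in the control. The remaining 2 called genes were CCL4L2 (2.62-fold) and XCL1 (at least 2.09-fold). CCL3 and CCL4L2 have close paralogs, of which CCL3L1, CCL4 and CCL4L1 had no named probe here, and how far the probes bind paralogs' transcripts was not tested. CCL24, another eotaxin, had signals of 4641, 4375 and 4674 and a log2 ratio of 0.13 with cordycepin.

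In order along chromosome 4, RefSeq lists CXCL8, CXCL6, PF4V1, CXCL1, PF4, PPBP, CXCL5, CXCL3 and CXCL2. CXCL6, PF4V1 and PF4 were not well above background on any array. PPBP was the only one of these 9 neighbors called higher with cordycepin. CXCL8 and CXCL2, at the ends of the run, were the only ones called higher with cordyceps.

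Most receptors of the members were not well above background in these cells. Of 23 chemokine receptors, 10 were tested with cordycepin and 1 was called higher, beside 5.95% of all genes. It was CCRL2, an atypical receptor, at least 3.04-fold higher. CCRL2 was tested only because it was above background on the cordycepin array. CXCR1, CXCR2, CCR2, CCR4 and ACKR1, which binds many chemokines without signaling, were not well above background on any array. CCR6, the receptor of CCL20, had signals of 957, 617 and 690 on the control, cordycepin and cordyceps arrays, and log2 ratios of −0.42 and −0.47. CXCR3, the receptor of CXCL10, had signals of 155, 123 and 98.1. With cordyceps 0 of 9 tested receptors were called, beside 7.35% of all genes called in either direction. CXCR4, the receptor of CXCL12, was 2.15-fold higher on the cordycepin array than on the cordyceps array.

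Of 14 cytokines known to induce chemokines or to be induced with them, 9 were tested with cordycepin, and 6 were called higher and 0 lower. With cordyceps 7 were tested, 4 higher and 0 lower. Over all genes 5.95% and 4.19% were called higher in these comparisons. CSF2 and IL33 were tested with cordycepin only because they were above background on that array, so the count is no support for a shared direction. IL1A and IL1B encode the forms of interleukin-1. IL1A had signals of 73.0, 295 and 316 on the control, cordycepin and cordyceps arrays, a rise of 4.69-fold and 4.32-fold. IL1B had signals of 1014, 2809 and 1713, a 3.21-fold rise with cordycepin and a log2 ratio of 0.76 with cordyceps. TNF, tumor necrosis factor, had signals of 37.8, 148 and 86.7, rises of 4.53-fold and 2.29-fold. Both treated arrays were above the control for these 3 genes. IL6, which drives the acute-phase response, had signals of 195, 557 and 1118 (3.32-fold and 5.74-fold), and CSF3, a growth factor of neutrophils, had 45.3, 98.6 and 211 (2.53-fold and 4.66-fold). For these 2 genes the cordyceps array was the highest. CSF2, a growth factor of granulocytes and macrophages, was well above background on the cordycepin array alone, at least 5.55-fold higher than in the control.

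Of 14 NF-κB factors and inhibitors, 1 was called higher with cordycepin and 2 with cordyceps, and 0 were lower in either comparison, with median log2 ratios of 0.16 and 0.39. The 1 of 14 is near the 5.95% of all genes called higher with cordycepin, and 4.19% were called higher with cordyceps. TNFAIP3, an NF-κB target that limits the pathway, had signals of 605, 1407 and 1669, rises of 2.70-fold and 2.76-fold. NFKB2 was 2.14-fold higher with cordyceps and had a log2 ratio of 0.84 with cordycepin. RELA, the main activating subunit, had log2 ratios of 0.11 with cordycepin and 0.34 with cordyceps. NFKB1 had 0.05 and 0.73, the inhibitor NFKBIA, whose probe is in the corner, had 0.26 and 0.28, and NFKBIZ had 0.47 and 0.93. These are transcript levels and say nothing of the location of the proteins.

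Of 12 interferon signaling genes, all measured on all 3 arrays, 0 were called in either comparison. Over all genes, 9.52% were called in either direction with cordycepin and 7.35% with cordyceps, so 0 of 12 is near these shares. IRF1, an interferon-induced factor, had log2 ratios of 0.56 with cordycepin and 0.54 with cordyceps. Of 9 proteins that bind AU-rich elements, sequences that govern the decay of many chemokine messenger RNAs, ZFP36L2 was called, 2.09-fold lower with cordycepin. The share of all genes called lower with cordycepin was 3.57%. ZFP36, which hastens decay, had log2 ratios of −0.05 and −0.43, and ELAVL1, which stabilizes, had 0.29 and −0.20. Of 7 leukocyte adhesion genes with a probe, 4 were tested with cordycepin and 2 were called higher, against 5.95% of all genes. ICAM2 was tested only because it was above background on the cordycepin array, so the count is no support for a shared direction. ICAM1, a ligand of leukocyte integrins, had signals of 64.8, 284 and 146, rises of 5.09-fold with cordycepin and 2.26-fold with cordyceps, and ICAM2 was at least 2.31-fold higher with cordycepin.

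The genes nearest to 8 of the members in both log2 ratios against control were found among 11246 genes measured on all 3 arrays outside the corner. For CCL5 these were NTN1, NECTIN4 and SAA4, at distances of 0.16, 0.36 and 0.44 on the log2 scale. For CCL17 they were CHAC1, CSTA and RGS16, at 0.66, 1.05 and 1.23. Few genes lay near these members. For CCL20 they were PPY, RAB17 and SERPINB4, and for CCL2 ZMYM3, S1PR1-DT and PGF, all within 0.094. Nearest to CXCL1 were SMG5, GABPB1 and DTWD2, and to CXCL3 TFPT, SNAR-F and GSC, all within 0.040. CXCL2 lay nearest to FBXO31, PPP3R1 and ENTREP1, and CXCL8 to MTHFD2, SLC33A1 and RPL23AP87, all within 0.11. Each distance rests on 3 arrays that share the control.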

How the data were processed

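A549 RNA was hybridized to 1 Agilent array per condition, and the authors deposited the scanner output and a value table. The intensity values deposited by the authors are processed signals of Agilent Feature Extraction 11.5.1.1, background-subtracted within each array and not scaled between arrays. The table's intensities deviated from the mean processed signal by at most 0.1% for 99.9% of probes, with medians of 20.3, 21.1 and 16.9 on the control, cordycepin and cordyceps arrays, so they are linear and not centred. The paper's methods name GeneSpring, and Cy3 and Cy5, whereas the files and labels hold 1 Cy3 channel per array.

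Here log2 intensities were set to the 75th percentile of each array over non-control probes. Control and outlier spots were left out, and repeat spots were averaged as log2. A probe counted as above background when at least 50% of its spots were marked so. Where only 1 of 2 arrays was above background, the fold is a bound. It was taken against the lowest signal above background on the other array, or against the probe's own signal there where that was larger, as for CCL3 and CCL28. Symbols came from the RefSeq table of GRCh38.p14, which named 31104 of 58201 probes. All 10 members and every probe were named, and from each other list up to 6 called genes by their cordycepin ratio, the members' receptors and selected regulators, with CCL4L2, XCL1 and CCL24 added after their values were seen. A few genes that this rule names are not reported here. Members and lists were chosen with earlier results of these data known. With 1 array per condition, precision is limited by the number of arrays. Alternatives comprised 15 other settings. Analyses used R 4.3.3 with limma 3.58.1, and Python 3.11.15 with numpy 2.4.6 and pandas 2.3.3, and the calculation was tested on simulated data.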

Additional observations from a re-analysis of the deposited data

How the results depend on the processing

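The 4 CC ligands remained at least 2-fold higher with cordycepin under all 9 alternatives that give a value per gene, with log2 ratios of 2.95 to 3.70 for CCL5, 2.79 to 3.54 for CCL17, 1.58 to 1.92 for CCL20 and 1.14 to 1.47 for CCL2. With cordyceps the ranges were 1.94 to 2.78 for CCL17, 1.32 to 1.68 for CXCL8 and 1.23 to 1.57 for CXCL2. Median scaling moved log2 ratios by −0.26 for cordycepin over control, 0.27 for cordyceps over control and −0.53 for cordycepin over cordyceps. The median of the 9 members became 0.51 with cordycepin and 0.97 with cordyceps, and in the direct comparison 2 members were lower. Of all genes called, the share that was higher went from 62.5% to 33.6%, from 57.1% to 82.2% and from 58.2% to 14.8%. At 1.5-fold, 6 members were higher with cordyceps and 1 was lower with cordycepin than with cordyceps. At 3-fold, 1 was higher with cordyceps. The other counts of members called stayed within 1.5 times, and no called ratio changed sign. No paired analysis was possible because each condition has 1 array. Signal over background limits CXCL10 and the ligands given as bounds.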
